A study of Mus musculus with 13 samples.

Results

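The response of Ctsl+/+ thymocytes to antigen and CD28 ligation was examined in the 6 libraries, out of 13 RNA sequencing libraries in all, whose labels give the genotype Lm54 Rag1-/- Ctsl fl/fl (WT). They were chosen by this label alone and by no measured value. Each came from 1 mouse. In 2 of them, from mice 5 and 6, the label gives 4 h of anti-CD28 at 250 ng/ml and LLO:I-Ab monomer at 1 µg/ml, and the remaining 4, from mice 1 to 4, carry no treatment. All 6 mice expressed the transgenic Lm54 T cell receptor (TCR), which recognizes a listeriolysin O (LLO) peptide on the MHC class II molecule I-Ab, and all were Rag1-/- by their labels, so that their CD4 T cells share 1 receptor. The sorted population was the M2 stage, the most mature CD4 single-positive (CD4SP) thymocytes, gated as CD69- and MHC class I+. The remaining 7 libraries came from Ctsl ΔTEC mice, in which Foxn1-cre removes the protease cathepsin L from thymic epithelium. They are used only where the response of WT cells is set against theirs.

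The design limits what the comparison can show. Stimulated cells spent 4 h in serum-free HL-1 medium, with the monomer bound to the plate and anti-CD28 in solution. For unstimulated cells the study's methods describe no culture. No sample analysed here is labelled as a culture without antigen. The file names also carry dates, and both stimulated libraries have a date that none of the unstimulated ones has, so culture, date and stimulation cannot be told apart. "Stimulated" and "response" below stand for all 3 together. With 2 mice against 4, a permutation of single values has 15 splits and cannot give an exact p below 0.0667, so p-values come only from the model fitted across all genes (edgeR's quasi-likelihood test with Benjamini-Hochberg adjustment, called at an adjusted p under 0.1).

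Engagement of the TCR raises calcium and activates the Ras-MAPK and protein kinase C pathways, which bring NFAT, AP-1 and NF-κB factors to the promoters of activation genes, and CD28 strengthens these signals. Naive T cells leave quiescence in this way: they make interleukin 2 (IL-2) and its high-affinity receptor, induce MYC, enlarge their protein-making machinery and change the receptors that guide their traffic, well before they first divide. M2 thymocytes are the cells about to leave the thymus and resemble naive T cells in these respects.

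Unstimulated libraries held 26590918 to 36035983 estimated counts, and the stimulated libraries 8085463 (mouse 5) and 27184520 (mouse 6), so mouse 5 sets the precision for weakly expressed genes. Levels are given as CPM (counts divided by the TMM-scaled library size), in the order of mice 1 to 4 for unstimulated and mice 5 and 6 for stimulated cells. Of 13393 genes that passed the filter on low counts, 9299 were called, which is 69.4% of those tested. Calls were nearly balanced, with 4471 genes (33.4%) higher and 4828 (36%) lower, and the CPM values of the groups did not overlap for 9626 genes (71.9%). TMM scaling centres the bulk of genes near no change, so this balance follows in part from the scaling. All changes are relative to the library, and RNA per cell cannot be read from them. Because most genes were called, a size rule is given as well. By it 2344 genes (17.5%) were called and at least 2-fold higher, and 2689 (20.1%) called and at least 2-fold lower. Genes higher by 16-fold or more numbered 221 and those lower by 16-fold or more 115. The 2-fold higher genes took 6% to 6.53% of the summed TPM, the authors' length-normalised abundance, in unstimulated cells and 19.7% and 21.9% in the stimulated ones. Conversely, the share of the 2-fold lower genes was 17.8% to 21.1% before and 5.15% and 5.70% after stimulation. These shares describe genes that were chosen on the same values.

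**Figure D1:**
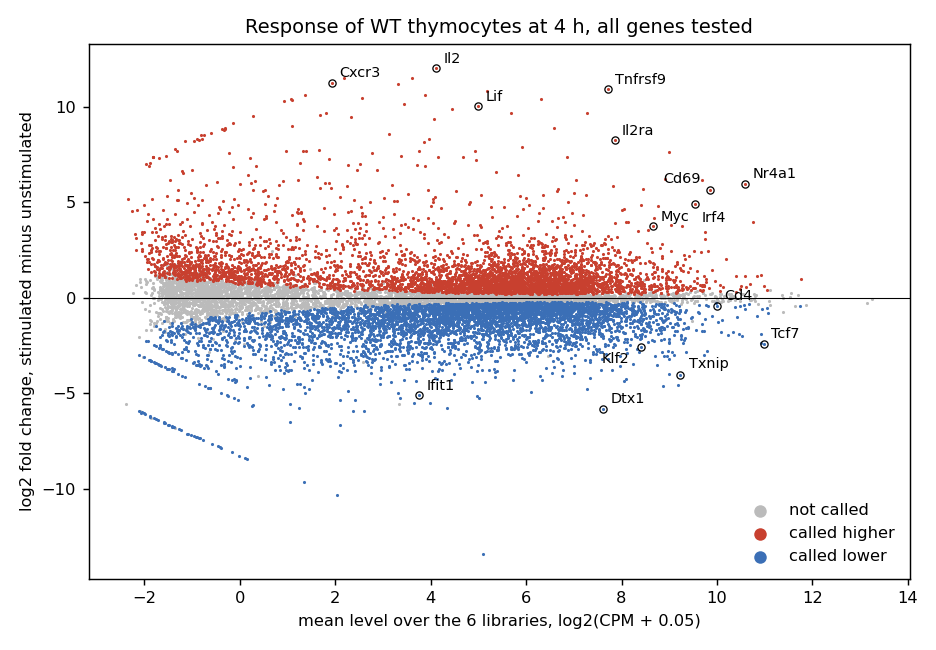
Mean level over the 6 libraries, as log2(CPM + 0.05), against the log2 fold change of stimulated over unstimulated WT cells for the 13393 genes tested, with genes called higher in red, called lower in blue and not called in grey. Named genes are circled, among them *Il2* at 12.02 and *Dtx1* at -5.79, and the diagonal streaks at the left are genes with counts of 0 in 1 group, whose fitted change depends on the prior count. The lowest point is *Gm28439*, an unprocessed pseudogene with 67.0, 50.2, 88.4 and 0 CPM in unstimulated mice 1 to 4 and 0 in both stimulated mice.

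The 12 largest rises among protein-coding genes with a mean of at least 10 CPM and no overlap between groups were led by *Il2* (ENSMUSG00000027720, chr3:37120523-37125959, minus strand), the gene of the main T cell growth factor. The unstimulated libraries held 0, 0, 0 and 0.0277 CPM of it, and the stimulated ones 53.6 and 50.2 CPM. This is 1 read in all unstimulated cells together, so the pooled ratio of 6511 has a counting interval of 1167 to 257332. *Ccl4*, a chemokine of activated T cells, rose from 0, 0, 0 and 0.0277 to 26 and 46.4 CPM. Its counting interval of 956 to 210898 overlaps that of *Il2*, so the order of these rises is not settled. *Spin4* and *Cxcr3* were at 0 in every unstimulated library. Against a floor of 3 counts per library they were at least 141-fold and at least 119-fold higher, with 12 and 14.9 CPM of *Spin4* and 10 and 12.6 CPM of *Cxcr3*, the chemokine receptor of type 1 helper cells. *Tnfrsf9* (ENSMUSG00000028965, chr4:150914562-150946102, plus strand), which encodes the costimulatory receptor 4-1BB, went from 0.227, 0.241, 0.366 and 0.443 to 715 and 541 CPM (log2 fold change 10.91 ± 0.21 SE, adjusted p = 6.69e-10). The remaining rises of this group were *Atf3*, *Rgs16*, *Lrrc32*, *Spry2*, *Sema7a*, *Npas4* and *Lif*, none above 0.227 CPM in any unstimulated library and none below 16.7 CPM in either stimulated one. Of the 13393 genes tested, 30 that were called higher had 0 counts in all 4 unstimulated libraries and 99 had at most 3 counts in each. Such genes passed the filter only through the stimulated libraries, so their direction follows from the filter. Only 5 genes were at 100 CPM or more in both stimulated libraries and at 1 CPM or less in every unstimulated one. They were *Lad1*, *Rgs16*, *Sema7a*, *Tnfrsf9* and *Tnfsf14*.

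The 12 largest falls were led by *Dtx1* (ENSMUSG00000029603, chr5:120680202-120711927, minus strand), which encodes the ubiquitin ligase Deltex 1, a Notch target. Its level was 185, 279, 417 and 282 CPM in unstimulated and 3.65 and 6.11 CPM in stimulated cells (log2 fold change -5.79 ± 0.38, adjusted p = 4.92e-07). *Kbtbd11* fell from 690.4, 669, 815 and 586 to 27.5 and 28.2 CPM. For these genes the groups were separated by a wide gap. *Tet1*, a DNA demethylating enzyme, held 85.3–111 CPM before and 3.13 and 3.38 CPM after stimulation. *Map2k6*, a kinase upstream of p38, went from 19.9–27.3 to 0.782 and 0.423 CPM, and *Treml2* from 198–241 to 10.4 and 7.11 CPM. *Slc16a5* and *Ampd1* fell by 5.22 and 5.15 on the log2 scale. *Oas2*, *Ifit1* and *Rtp4* are interferon-stimulated genes and are described with that list. *BC147527* and *Tgtp2* have close copies in the genome between which the estimated counts could be split, so their fall is uncertain. In all, 41 of the 13393 genes tested were called lower with 0 counts in both stimulated libraries. They passed the filter only through the unstimulated ones, so their direction follows from it.

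Promoter sequence is shown for genes whose change stands among the largest or for whose list a motif was counted. The RefSeq windows of GRCm38.p6 run from 250 bases before to 50 after a start site. Only windows with a match in the 250 bases before the start site were candidates. The runs shown were thus chosen for having one. A window was found for 10008 of the genes tested. Each run below is the 250 bases before the start site, 5′ to 3′ along the gene, with matches to the searched letters in capitals, both strands counted.
*Il2* (chr3:37125955-37126204, minus strand), letters GGAAAA (the NFAT core) and TATAAA in capitals: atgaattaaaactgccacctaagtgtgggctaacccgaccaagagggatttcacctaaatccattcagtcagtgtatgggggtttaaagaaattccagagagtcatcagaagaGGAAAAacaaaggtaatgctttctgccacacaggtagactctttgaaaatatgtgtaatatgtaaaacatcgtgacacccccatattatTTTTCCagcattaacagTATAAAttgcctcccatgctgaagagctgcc
*Tnfrsf9* (chr4:150927749-150927998, plus strand), letters TGANTCA (AP-1, N being any base) and those of kappa-B (GGGA, any base, TT, any base, CC) in capitals: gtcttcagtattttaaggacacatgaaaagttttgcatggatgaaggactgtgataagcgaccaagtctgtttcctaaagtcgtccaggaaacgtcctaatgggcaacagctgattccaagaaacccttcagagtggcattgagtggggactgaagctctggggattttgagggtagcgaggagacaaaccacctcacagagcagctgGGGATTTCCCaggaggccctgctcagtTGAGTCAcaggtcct
*Nfkb2* (chr19:46304487-46304736, plus strand), kappa-B letters in capitals: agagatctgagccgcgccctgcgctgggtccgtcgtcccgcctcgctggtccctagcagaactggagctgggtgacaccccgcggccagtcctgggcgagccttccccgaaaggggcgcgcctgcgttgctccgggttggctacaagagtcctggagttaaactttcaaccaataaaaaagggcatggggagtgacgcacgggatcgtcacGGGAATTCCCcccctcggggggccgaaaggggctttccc
*Ifit1* (chr19:34640639-34640888, plus strand), letters GAAA, any 2 bases and GAAA (the interferon-stimulated response element, ISRE) in capitals: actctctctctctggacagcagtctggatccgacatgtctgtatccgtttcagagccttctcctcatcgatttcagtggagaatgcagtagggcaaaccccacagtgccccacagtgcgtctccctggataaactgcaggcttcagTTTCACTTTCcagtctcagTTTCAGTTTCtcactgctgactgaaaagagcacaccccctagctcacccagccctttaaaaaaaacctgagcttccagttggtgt
*Nop2* (chr6:125131633-125131882, plus strand), letters CACGTG (the E-box of MYC and MAX) in capitals: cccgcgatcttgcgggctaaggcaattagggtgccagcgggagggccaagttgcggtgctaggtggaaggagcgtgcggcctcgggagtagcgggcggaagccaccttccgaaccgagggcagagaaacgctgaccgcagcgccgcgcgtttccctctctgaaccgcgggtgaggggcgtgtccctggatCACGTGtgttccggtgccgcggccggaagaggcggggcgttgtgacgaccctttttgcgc

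In these runs the TATAAA of *Il2* begins 31 bases before the start site and its GGAAAA matches 48 and 137 bases before it. The *Tnfrsf9* run belongs to the later of its 2 RefSeq start sites, which lies inside the annotated gene. The kappa-B letters begin 42 bases before that start site and 39 before the first of 3 listed for *Nfkb2*, of which the third has a match 225 bases before it, the ISRE letters 104 and 85 before that of *Ifit1*, and the E-box 60 before that of *Nop2*. Kappa-B letters were held by 3.96% of the windows of genes higher by 16-fold or more and by 1.23% of windows of all genes tested. AP-1 letters were held by 12.4% of windows of genes higher by 16-fold or more, but by 12.2% of windows of genes lower by as much, against 5.20% overall. The shares of NFAT core letters were 19.8% in windows of genes higher by 16-fold or more, 26.7% in those of genes lower by as much and 21.1% overall. ISRE letters were found in 17.8% of windows of genes lower by 16-fold or more and in 3.16% overall. These matches are descriptions of letters in a window and carry no test.

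**Figure D2:**
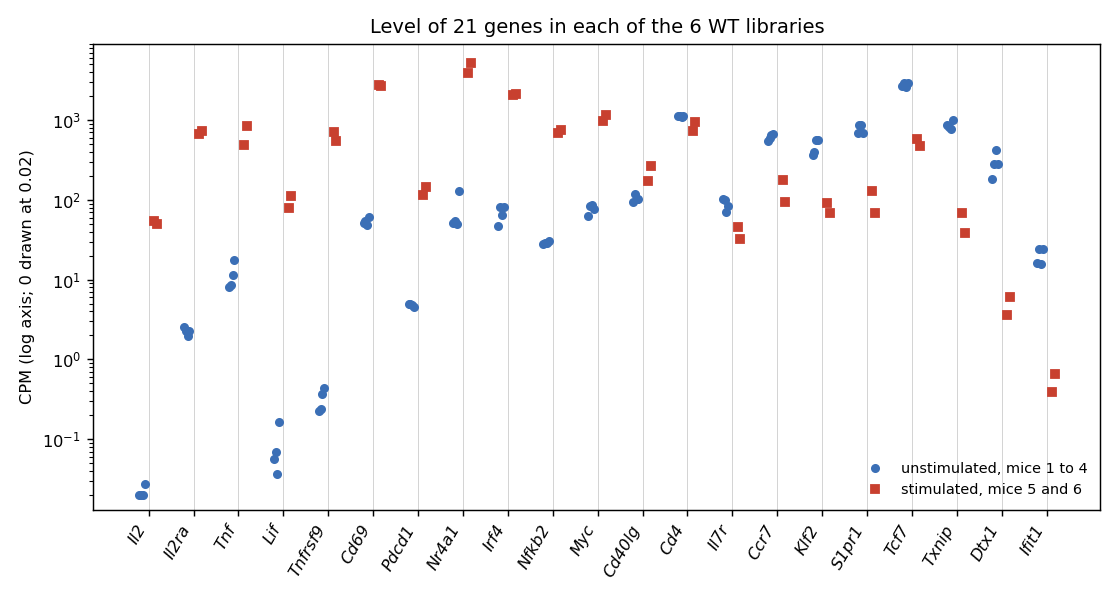
CPM, on a log axis with 0 drawn at 0.02, of 21 genes in each unstimulated library (blue circles, mice 1 to 4) and each stimulated library (red squares, mice 5 and 6). *Il2ra* and *Tnfrsf9* sit far higher in both stimulated mice, *S1pr1* and *Dtx1* far lower, and the *Cd4* points of the groups lie close together.

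Of the 32 listed cytokines and chemokines 19 were too weak to test, and of the other 13 the fit called 11 higher and 1 lower. These are shares of 84.6% and 7.69%, against 33.4% and 36% of all genes. Of those 13, *Il2*, *Ccl4*, *Xcl1*, *Ccl3*, *Areg* and *Ifng* had at most 1 count in all 4 unstimulated libraries together and passed the filter only through the stimulated ones, so this count and its median of 7.40 follow in part from the filter. With 10 counts required in every library 6 genes were tested, of which 4 were higher and 1 lower, with a median log2 fold change of 1.72. The largest levels after stimulation within the list came with *Tnf*, an inflammatory cytokine, which rose from 8.04, 8.62, 11.5 and 17.7 to 483 and 834 CPM (log2 fold change 5.84 ± 0.31, adjusted p = 1.31e-07). *Lta*, its close relative, went from 6.11–7.31 to 117 and 223 CPM. *Lif* rose from 0.0567, 0.069, 0.0366 and 0.166 to 79 and 112 CPM. *Tgfb1* was expressed at 168–218 CPM before and 448 and 609 CPM after stimulation. All 4 were thus higher in both stimulated mice than in any unstimulated mouse. *Xcl1* and *Ccl3* were at 0 in every unstimulated library and at least 79.1-fold and at least 22.8-fold higher. *Ifng*, the defining cytokine of type 1 helper cells, was at 0 in all unstimulated libraries and at 0.391 and 0.999 CPM in the stimulated ones, at least 7.29-fold higher but weak in level. Type 2 and type 17 cytokines were nearly silent in both groups. No count of *Il4*, *Il5*, *Il13*, *Il10*, *Il17a* or *Il22* was found in any of the 6 libraries, which allows at most 3 counts per library, or 0.391 CPM in mouse 5. *Osm* was the single cytokine called lower, from 19.3–24 to 8.74 and 7.34 CPM. *Ltb* held 432–531 CPM before and 449 and 515 CPM after stimulation and was not called.

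A gene of the IL-2 receptor rose with its ligand. *Il2ra* (ENSMUSG00000026770, chr2:11642807-11693193, plus strand), encoding the CD25 chain that gives high affinity, rose from 2.55, 2.24, 1.97 and 2.27 to 661 and 723 CPM (log2 fold change 8.25 ± 0.13, adjusted p = 1.94e-10). The shared chains changed less, *Il2rg* from 549–672 to 1241 and 1428 CPM and *Il2rb* from 7.79–11.4 to 19 and 15.2 CPM. *Cish*, a feedback inhibitor of cytokine signals, went from 1.95, 2.62, 2.67 and 1.86 to 84.9 and 107 CPM, and *Pim1*, a kinase gene, from 32.9–52.1 to 687 and 548 CPM. *Socs1*, a cytokine signal inhibitor, increased by 3.74 on the log2 scale. Other members of the list fell. *Il7r*, encoding the receptor for the survival cytokine IL-7, went from 103, 98.5, 71.3 and 83.3 to 46.3 and 32.5 CPM (log2 fold change -1.19, adjusted p = 0.000251). *Il6ra* and *Il10ra* fell by 2.17 and 2.98 on the log2 scale, *Jak1* by 1.24 and *Socs3* by 3.73. Over the whole list of receptors and JAK-STAT genes 13 of 30 were higher and 13 lower, shares of 43.3% each near the 33.4% and 36% of all genes, and the median of 0.08 took the other sign under 3 of the scalings or units tried.

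Of 32 surface molecules of costimulation, inhibition and the TNF family 30 were higher and 2 lower (93.8% and 6.25%, against 33.4% and 36% of all genes), with a median log2 fold change of 2.60. With 10 counts required in every library 26 of 28 were higher. *Cd69* (ENSMUSG00000030156, chr6:129267325-129275436, minus strand), the early activation antigen, rose from 50.8, 54.2, 48.9 and 60.9 to 2723 and 2642 CPM (log2 fold change 5.64 ± 0.14, adjusted p = 2.13e-09). The sort had kept only CD69- cells by surface protein, and the part of this gate in the unstimulated transcript level was not tested. *Tnfsf14*, encoding LIGHT, went from 0.821, 0.345, 0.987 and 0.831 to 161 and 196 CPM. *Cd83* rose from 0–0.085 to 29.2 and 22.9 CPM. Both were close to absent in unstimulated cells. Inhibitory receptors and ligands were among the higher genes. *Pdcd1*, encoding PD-1, went from 4.96, 4.93, 4.83 and 4.49 to 115 and 146 CPM, and its ligand gene *Cd274* from 16.5–23 to 818 and 1188 CPM. *Lag3* rose from 0.166–0.397 to 3.65 and 8.69 CPM and *Ctla4* from 1.1–5.3 to 16.8 and 8.49 CPM. *Cd5*, a negative regulator whose level tracks TCR signal strength in thymocytes, rose from 266, 394, 348 and 318 to 1772 and 1744 CPM. *Cd40lg*, through which helper T cells act on B cells and dendritic cells, rose from 94.7, 117, 104 and 102 to 174 and 266 CPM, a log2 fold change of 1.08. The 2 lower members were *Tnfsf10*, encoding TRAIL, with 16–27.4 CPM before and 4.43 and 2.92 CPM after stimulation, and *Slamf6*, which fell by 1.24 on the log2 scale.

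In the TCR complex and its proximal signalling chain, 12 of 30 genes were higher and 11 lower, shares of 40% and 36.7% near the 33.4% and 36% of all genes, and the median was -0.06. *Cd3e*, encoding the CD3 epsilon chain, held 523, 624, 563 and 432 CPM in unstimulated and 425 and 573 CPM in stimulated cells and was not called. *Cd4* was at 1129.8, 1109.8, 1109 and 1134 CPM before and 734 and 957 CPM after stimulation (log2 fold change -0.41, adjusted p = 0.0247), a call that was lost without stimulated mouse 5 (adjusted p = 0.152). *Zap70* and *Lcp2*, encoding the kinase and the adaptor SLP-76 at the start of the cascade, rose by 2.24 and 2.17 on the log2 scale. *Themis*, needed during positive selection, went the other way, from 317, 356, 272 and 251 to 38.5 and 27.4 CPM. *Grap2*, encoding the adaptor GADS, fell from 639–762 to 118 and 88.4 CPM and *Cd247*, encoding the CD3 zeta chain, by 1.35 on the log2 scale.

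Of 29 negative feedback genes 13 rose and 11 fell (44.8% and 37.9%, near the 33.4% and 36% of all genes). Some, such as *Rgs16* and *Spry2*, passed the filter only through the stimulated libraries, and with 10 counts required in every library 10 of 26 were higher and 11 lower. *Spry1*, encoding an inhibitor of Ras-MAPK signalling, went from 0.312, 0.31, 0.256 and 1.22 to 419 and 503 CPM, *Dusp2* from 100.1–167 to 1391 and 1849.6 CPM and *Dusp4* from 2.27–5.93 to 166 and 170.1 CPM. *Rgs16*, which limits G protein signals, rose from 0.0567, 0.0345, 0 and 0.111 to 104 and 113 CPM. *Zc3h12a*, encoding the RNase Regnase-1 that degrades cytokine mRNA, increased by 2.92 on the log2 scale and *Cblb*, a ubiquitin ligase, by 2.06. *Dgka*, whose product consumes the second messenger diacylglycerol, fell from 1607, 1524, 1611 and 1611 to 387 and 453 CPM. *Sla2* fell from 80.5, 88.5, 88.8 and 88.5 to 24.5 and 18.6 CPM.

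Immediate early genes are transcribed within minutes of a signal and include the FOS, JUN, EGR and NR4A factors. After 4 h, 17 of the 24 tested were higher, 70.8% against 33.4% of all genes, and none was called lower, with a median log2 fold change of 1.77. *Atf3* and *Fosl1* had 1 count each in the unstimulated libraries together and passed the filter only through the stimulated ones, and with 10 counts required in every library 13 of 19 were higher. *Nr4a1* (ENSMUSG00000023034, chr15:101254269-101274795, plus strand), a reporter of TCR signal strength, rose from 52, 54.8, 49.8 and 129.7 to 3873 and 5128 CPM (log2 fold change 5.97 ± 0.38, adjusted p = 3.98e-07). *Nr4a2* went from 0.737, 0.414, 0.0731 and 1.08 to 230.4 and 343 CPM and *Nr4a3* from 8.55, 8, 7.31 and 6.7 to 1201 and 1849 CPM. *Egr2* rose from 23.5, 27.5, 33.2 and 28.3 to 196 and 289 CPM. All 3 NR4A genes were thus higher in both stimulated mice than in any unstimulated mouse. Genes of AP-1 subunits differed among themselves. *Fosl1* rose from 0, 0, 0 and 0.0277 to 10.2 and 8.69 CPM, whereas *Fos*, *Jun* and *Junb* were not called. *Fos* held 17.7, 14.2, 6.03 and 92.4 CPM before and 66.1 and 58.2 CPM after stimulation. *Junb* held 139, 114, 93.5 and 734 CPM before and 549.7 and 496 CPM after it. *Jun* held 43.8, 17.9, 2.01 and 436 CPM in unstimulated and 16.4 and 14.2 CPM in stimulated cells. For these 3 genes unstimulated mouse 4 was the highest of all 6 libraries. The summed level of the list in this mouse was 3536 CPM, against 1373 to 1464 CPM in mice 1 to 3, and its library is the only unstimulated WT library with its date. Without it, 20 of 24 were called higher and *Fos*, *Junb* and *Jund* joined them, at log2 fold changes of 2.29, 2.18 and 0.77 (adjusted p from edgeR of 1.19e-04, 6.58e-07 and 1.77e-04). *Dusp1*, *Rgs1* and *Zfp36* of the feedback list, not called with all mice, were called higher without mouse 4, at 2.18, 1.62 and 0.58. The part of this mouse's date or handling in its levels was not tested.

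**Figure D3:**
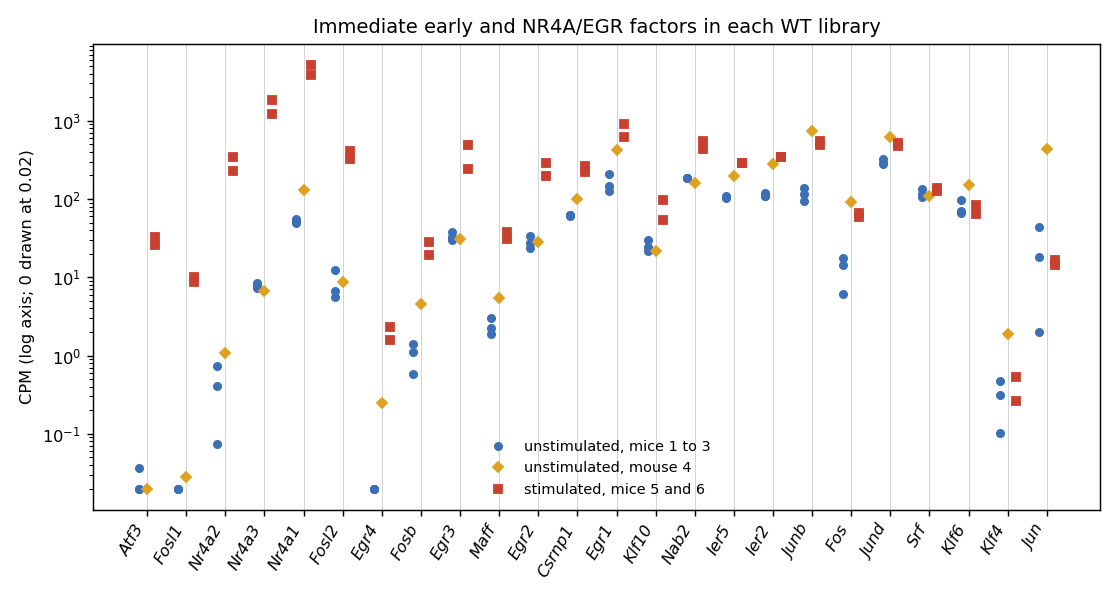
CPM, on a log axis with 0 drawn at 0.02, of the 24 tested immediate early and NR4A/EGR genes in unstimulated mice 1 to 3 (blue circles), unstimulated mouse 4 (yellow diamonds) and stimulated mice 5 and 6 (red squares), ordered by log2 fold change. At the right-hand end mouse 4 lies above the other unstimulated mice for *Junb*, *Fos* and *Jun*, and for *Jun* it reaches 436 CPM against at most 43.8 CPM elsewhere.

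In the list of BATF, IRF, NFAT and NF-κB genes 17 of 22 were higher and 4 lower (77.3% and 18.2%, against 33.4% and 36% of all genes), with a median of 2.06. *Irf4*, whose level scales with TCR signal strength, went from 47.7, 81.2, 63.9 and 81.9 to 2060.3 and 2109 CPM (log2 fold change 4.92 ± 0.20, adjusted p = 3.00e-08). *Nfkb2*, whose promoter is shown above, rose from 28.3, 28.6, 29 and 30.7 to 691 and 744 CPM. *Rel*, encoding the NF-κB subunit needed for *Il2* transcription, rose from 52.5–72 to 863 and 1367 CPM, and *Relb* from 17.7–22 to 357 and 435 CPM. The inhibitors of NF-κB were among the genes that rose, *Nfkbid* from 41.8–43.7 to 945 and 1498 CPM and *Nfkbia* by 2.11 on the log2 scale. NFAT genes went in different directions. *Nfatc1* rose from 165–171 to 827 and 1192 CPM, while *Nfatc2* and *Nfatc3* fell by 1.59 and 1.86 on the log2 scale.

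Among factors that steer helper fate, 4 of 14 tested were higher and 7 lower (28.6% and 50%, against the 33.4% and 36% of all genes). *Bhlhe40*, a regulator of cytokine production, rose from 0.227, 0.345, 0.293 and 0.831 to 85.5 and 94.9 CPM. *Bcl6*, the follicular helper factor, went from 14.4, 12.1, 11.2 and 12 to 169 and 241 CPM, whereas its antagonist *Prdm1* fell from 8.36, 8.72, 8.05 and 7.09 to 1.56 and 0.73 CPM. *Zbtb7b*, which encodes ThPOK and fixes the CD4 lineage, fell from 338, 318, 388 and 405 to 61 and 86.2 CPM, and *Runx3*, its opponent in CD8 cells, from 80.8–94.2 to 19 and 22.1 CPM. *Gata3* fell by 0.90 on the log2 scale. *Tbx21*, encoding T-bet, was at 0 in all libraries but that of mouse 6, where it reached 1.27 CPM, and was not tested.

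Genes that keep naive T cells quiescent made up the list with the second lowest median. Of 28 tested, 20 were lower and 5 higher (71.4% and 17.9%, against 36% and 33.4% of all genes), with a median log2 fold change of -1.98. Without stimulated mouse 6, 18 were lower and 3 higher. *Klf2* (ENSMUSG00000055148, chr8:72319033-72321656, plus strand), a master regulator of quiescence and egress, fell from 366, 401, 559 and 561 to 92.2 and 68.4 CPM (log2 fold change -2.56 ± 0.23, adjusted p = 3.92e-06). *Tcf7* and *Lef1*, encoding factors of the naive state, fell from 2650.4, 2904, 2625 and 2957 to 581 and 476 CPM and from 488, 494, 459 and 346 to 111 and 122 CPM. *Foxo1*, which drives *Klf2* and *Il7r*, fell from 508, 544, 474 and 504 to 163 and 171 CPM. Each of these genes was lower in both stimulated mice than in any unstimulated mouse. *Txnip*, an inhibitor of glucose uptake, fell from 869.8, 823, 772 and 1009 to 68.1 and 38.2 CPM and *Pdcd4*, which blocks translation, from 468, 448, 412 and 404 to 51.1 and 29.8 CPM. *Igfbp4* had the largest change in the list, from 296, 473, 353 and 465 to 15.5 and 25.5 CPM. *Bach2*, *Btg1*, *Id2*, *Id3* and *Tsc1* were the 5 higher members, with log2 fold changes from 0.27 for *Tsc1* to 1.32 for *Id2*, whose call was lost without stimulated mouse 6 (adjusted p = 0.105).

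Of 26 homing, egress and adhesion receptors 10 were higher and 13 lower (38.5% and 50%, against the 33.4% and 36% of all genes). Of these, *Cxcr3*, *Cxcr5* and *Cxcr6* had few or no counts in unstimulated libraries, and with 10 counts required in every library 6 of 20 were higher and 11 lower. *S1pr1*, the egress receptor, went from 686, 861, 878 and 685 to 128 and 69.2 CPM (log2 fold change -2.99, adjusted p = 3.11e-06). *Ccr7* fell from 541, 600.4, 659 and 662 to 176 and 94.4 CPM. Integrins of the alpha 4 beta 7 pair fell together, *Itgb7* from 654–783 to 82.5 and 75.6 CPM and *Itga4* from 276–418 to 45.4 and 41.2 CPM. *Ccr4*, a receptor of skin-homing T cells, went from 12.4, 18.5, 13.5 and 16.5 to 238 and 262 CPM and *Ccr8* from 2.55, 7.34, 5.08 and 9.7 to 85.3 and 87.7 CPM. *Cxcr5* and *Cxcr6* rose from 0.103–0.439 to 4.69 and 8.03 CPM and from 0.0554–0.207 to 3.91 and 3.96 CPM. *Itgal* and *Itgb2*, the chains of LFA-1, were not called.

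*Myc* (ENSMUSG00000022346, chr15:61985391-61990374, plus strand), which drives growth of activated lymphocytes, rose from 63.4, 84, 87.2 and 77.5 to 976 and 1149 CPM (log2 fold change 3.77 ± 0.14, adjusted p = 1.68e-08). Of the 10 tested genes of its network 3 were higher and 4 lower (30% and 40%, near the 33.4% and 36% of all genes), with a median of -0.22. Among antagonists of MYC, *Mxd4* fell from 231–251 to 34.7 and 27.5 CPM, *Mxi1* by 2.12 and *Mxd1* by 1.27 on the log2 scale, while *Mnt* rose by 0.84. *Max*, encoding the common partner, changed by -0.25. Of 55 genes of ribosome biogenesis and RNA polymerase I, 54 were higher, 98.2% against 33.4% of all genes, with a median of 1.88 and 50 of them past 2-fold. *Gnl3* rose from 59.3, 65.9, 58.7 and 72.7 to 428 and 502 CPM, and *Polr1b*, encoding a core subunit of RNA polymerase I, from 46.5, 57.2, 51.9 and 45.1 to 329.5 and 357 CPM. *Nop2*, an rRNA methyltransferase gene, rose from 53–57.1 to 320.2 and 334 CPM. The count was 54 again under every alternative but 1, the fit without stimulated mouse 5, where it was 53. *Ubtf* was the lower one, from 288–343 to 221 and 222 CPM. E-box letters were held by 16.7% of the 60 windows of this list, by 20% of the 20 windows of cholesterol genes, 25% of the 16 of tRNA synthetases and 11.9% of the 67 of ribosomal proteins. Their share was 12.1% over genes higher by 2-fold or more and 9.56% over all genes tested.

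Genes of the ribosomal proteins themselves were mostly not called. Of 78 tested, 13 were called higher (16.7%) and none lower, with a median of 0.16. The median was -0.02 without stimulated mouse 5 and 0.32 without stimulated mouse 6, and without unstimulated mouse 4, whose summed level of 76041 CPM stood above the 58308 to 61259 CPM of the others, 37 were called. No direction is therefore given for this list. Of 23 cytosolic tRNA synthetase genes 22 were higher, 95.7% against 33.4% of all genes, with a median of 1.61. *Aars* rose from 51.1, 50.5, 61 and 49.6 to 431 and 331 CPM and *Cars* from 23.3, 24.1, 27.4 and 24.9 to 197 and 160.0 CPM. *Qars* was not called. Of the 24 chaperone genes 19 were higher and 3 lower (79.2% and 12.5%, against 33.4% and 36% of all genes). *Cct3*, encoding a subunit of the chaperonin that folds actin and tubulin, rose from 147–174 to 602 and 545 CPM. *Hspa1b*, an inducible heat shock gene, held 90.6, 8.62, 0.183 and 2.3 CPM in unstimulated and 2.22 and 0.961 CPM in stimulated cells, and most of its level lies in mouse 1, without which the call was lost (adjusted p = 0.311), as it was without stimulated mouse 5 or 6 (0.206 and 0.356).

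Amino acid uptake and one-carbon metabolism supply protein and nucleotide synthesis. In this list, which also held targets of the stress factor ATF4, 22 of 28 genes were higher and 2 lower (78.6% and 7.14%, against 33.4% and 36% of all genes), with a median of 1.70. Members such as *Asns* and *Slc6a9* passed the filter only through the stimulated libraries, and with 10 counts required in every library 19 of 24 were higher. *Slc7a5*, encoding the large neutral amino acid transporter, rose from 40.9, 50, 55.9 and 43.7 to 802 and 683 CPM, and *Slc7a1*, the arginine transporter, from 74.7, 86.8, 91.5 and 72.5 to 937 and 995 CPM. *Shmt1* rose from 8.89, 9.83, 10.4 and 10.4 to 209 and 215 CPM and *Mthfd2* from 25.6, 26, 30.8 and 22.7 to 232 and 147 CPM. *Slc6a9* and *Asns* rose from at most 0.069 CPM to 8.74 and 6.5 CPM and to 5.35 and 1.88 CPM. *Ddit4*, an inhibitor of mTORC1, was lower, with 259.9, 187, 205 and 101 CPM before and 35.1 and 24.7 CPM after stimulation.

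Of 24 genes of glycolysis and of glucose or lactate transport 12 were higher and 7 lower (50% and 29.2%, against 33.4% and 36% of all genes). *Hk2*, encoding the hexokinase of growing cells, went from 0.935, 0.793, 0.695 and 0.665 to 30.4 and 22.4 CPM. The lactate transporter genes named rose, *Slc16a3* from 2.23–2.6 to 30.4 and 21.1 CPM and *Slc16a1* from 22.7–42.1 to 234 and 210.4 CPM. *Slc2a1* and *Slc2a3*, encoding the glucose transporters GLUT1 and GLUT3, had log2 fold changes of 0.65 and 0.19, the latter not called. *Pdk1* fell from 273, 294, 243 and 238 to 41.1 and 32.9 CPM, and *Eno1* from 774, 875, 774 and 821 to 243 and 174 CPM. *Pfkm* fell by 2.50 on the log2 scale while *Pfkp*, the platelet-type isoform, rose by 1.04.

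Cholesterol synthesis and uptake had the highest median of the metabolic lists, with a log2 fold change of 2.21. Of its 24 genes 18 were higher and 3 lower (75% and 12.5%, against 33.4% and 36% of all genes). *Sqle*, an early enzyme of the sterol branch, rose from 5.69, 6.38, 4.61 and 5.4 to 293 and 175 CPM (log2 fold change 5.40 ± 0.20, adjusted p = 1.53e-08). Of the 6 cholesterol efflux genes 4 were lower and 2 higher, too few to set against the shares of all genes. *Abcg1* fell from 147–187 to 47.7 and 61.2 CPM and *Mylip*, encoding a ubiquitin ligase, from 119–148 to 42.6 and 44.3 CPM. *Apoe*, a lipid carrier gene of the same list, rose from 9.51–11.6 to 33 and 31.4 CPM (log2 fold change 1.63), and *Nr1h2*, encoding the beta form of the liver X receptor, by 0.35 on the log2 scale, a call lost without stimulated mouse 6 (adjusted p = 0.15) and with limma on log2(TPM + 1). *Abca1* varied widely before stimulation, at 41.8, 7.45, 35.5 and 11.7 CPM, and its call was lost without either stimulated mouse (adjusted p of 0.179 without mouse 5 and 0.142 without mouse 6). The medium of the stimulated cells held no serum, a source of lipoproteins, and medium and stimulation cannot be told apart. All 24 genes of this list were lower in stimulated mouse 6 than in mouse 5.

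Of 33 genes of DNA replication and mitosis 5 were higher and 15 lower (15.2% and 45.5%, against 33.4% and 36% of all genes), with a median of -0.36. Their summed level was 644 to 741 CPM before and 723 and 758 CPM after stimulation. With 10 counts required in every library 7 were higher and 8 lower of 23, while without stimulated mouse 6 it was 1 higher and 9 lower of 33, with a median of -0.66. No direction is therefore given for the list. *Mki67*, a marker of cycling cells, held 10.9, 7.65, 9.25 and 12.1 CPM before and 3.52 and 4.73 CPM after stimulation. *Top2a* fell from 11.4–18.3 to 4.69 and 4.73 CPM and *Ccnb1* from 1.31–2.16 to 0.391 and 0.192 CPM, though limma on log2(TPM + 1) did not call the latter (adjusted p = 0.260). *Pcna* rose from 136–202 to 299.7 and 259.6 CPM. Regulators of the first gap phase changed in both directions, 6 of 19 higher and 11 lower (31.6% and 57.9%, against 33.4% and 36% of all genes). *Cdkn1a*, encoding the inhibitor p21, rose from 0.227, 0.207, 0.11 and 0.0554 to 44.3 and 42.4 CPM, whereas *Cdkn1b*, encoding p27, fell from 327, 287, 278 and 360.1 to 75.6 and 44.9 CPM. *Ccnd2* and *Cdk4* rose by 0.90 and 1.32 on the log2 scale. *E2f2*, a repressor of T cell proliferation, fell from 20.3–30.6 to 2.74 and 2.23 CPM, and *Rbl2*, encoding the pocket protein p130, from 135–167 to 29.5 and 21.3 CPM.

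In the BCL2 family 8 of 15 genes were higher and 3 lower (53.3% and 20%, against 33.4% and 36% of all genes). *Bcl2l1*, encoding BCL-XL, rose from 17.9, 19.8, 19 and 22.6 to 285 and 234 CPM. *Bcl2a1d* and *Bcl2a1b*, near-identical copies between which estimated counts could be split, rose from 0.526–0.841 to 104 and 78.1 CPM and from 1.66–2.34 to 176 and 157 CPM. *Bcl2l11*, encoding the death inducer BIM, rose from 58.4, 49.1, 48.2 and 47.2 to 276 and 307 CPM. *Bad* and *Bmf*, also pro-apoptotic, fell by 2.18 and 1.31 on the log2 scale.

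Interferon-stimulated genes had the lowest median of the 24 lists, -2.72, with 28 of 34 lower, 82.4% against 36% of all genes, and 3 higher. Of these 34, 12 had under 10 counts in at least 1 library, and among the other 22 the fit called 18 lower and 2 higher, with a median of -2.27. *Irf7*, which amplifies the interferon response, fell from 51.4, 58.7, 55.9 and 71.3 to 4.3 and 3.77 CPM. *Ifit1* (ENSMUSG00000034459, chr19:34640871-34650009, plus strand) fell from 16.3, 24, 15.7 and 23.9 to 0.391 and 0.653 CPM (log2 fold change -5.09 ± 0.34, adjusted p = 5.53e-07). *Oas2* fell from 15.4, 15.7, 10.7 and 19.1 to 0.13 and 0.5 CPM. *Stat2* and *Irf9*, encoding subunits of the factor that binds the ISRE, fell from 57.8, 57.2, 58.2 and 57.4 to 14.3 and 15.3 CPM and from 112, 115, 98.1 and 111 to 21.8 and 23.6 CPM. All 5 genes were lower in both stimulated mice than in any unstimulated mouse. The 3 higher members were *Ifi204*, *Mx1* and *Isg20*, with log2 fold changes of 1.25, 1.15 and 0.91. ISRE letters were present in 14 of the 28 windows of this list (50%, 22 genes matched). GIMAP GTPases, which support survival of naive lymphocytes, were lower for 6 of 8 genes (75%, against 36% of all genes), a list of few members. *Gimap7* fell from 58.6, 58.7, 63.7 and 55.3 to 12.4 and 7.96 CPM and *Gimap3* from 990.2–1212 to 346 and 311 CPM, while *Gimap5* and *Gimap6* were not called.

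**Figure D4:**
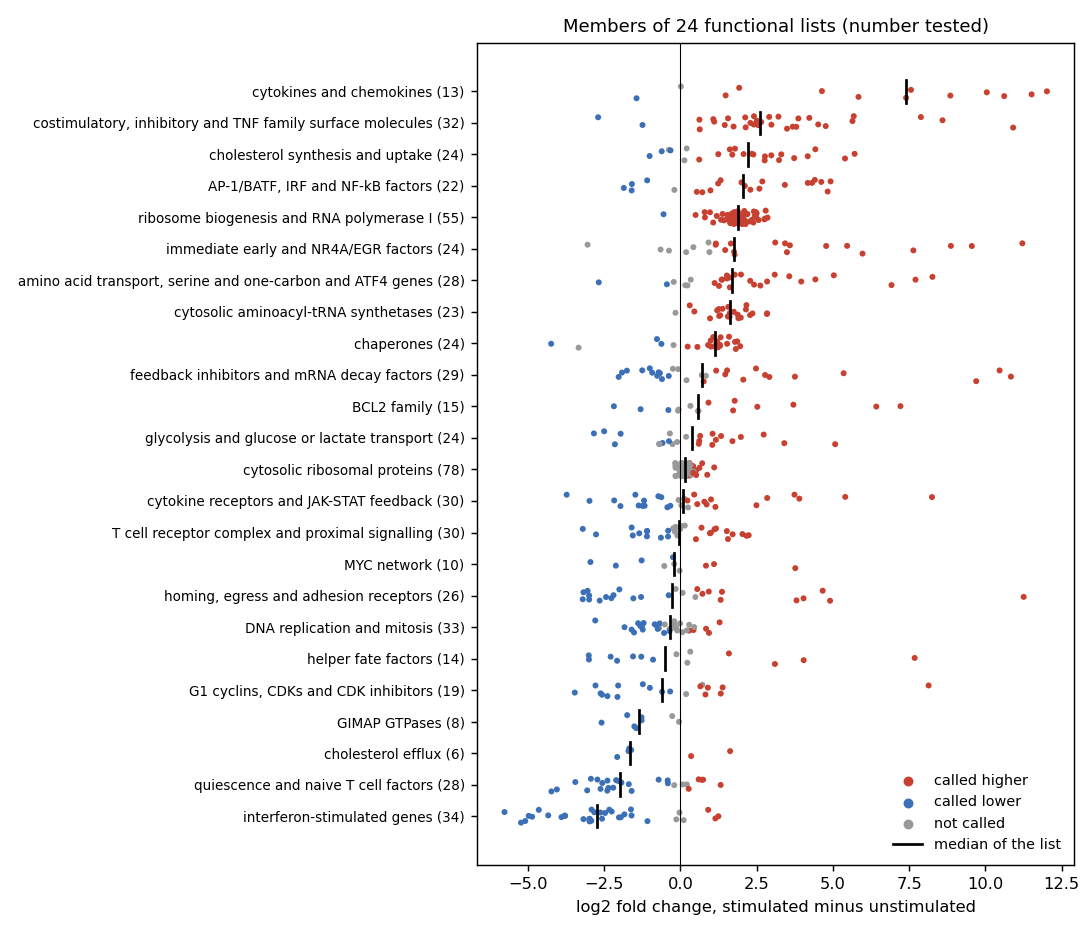
Log2 fold change (stimulated minus unstimulated) of each tested member of 24 functional lists, red where called higher, blue where called lower and grey where not called, with a black bar at the list's median and the number tested in parentheses. Medians run from 7.40 for cytokines and chemokines, of which several passed the filter only through the stimulated libraries, to -2.72 for interferon-stimulated genes, and the ribosome biogenesis points lie almost wholly to the right of 0.

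The 2 stimulated mice differed little over most genes. The median difference of mouse 6 from mouse 5, on the scale of log2(CPM + 0.5), was 0.00252 over all genes tested, and its median size 0.225. Some lists shifted together. All 24 cholesterol genes were lower in mouse 6, with a median difference of -0.64, and so were all 78 ribosomal protein genes (-0.34) and all 23 tRNA synthetases (-0.22). Immediate early genes were higher in mouse 6 for 16 of 24, with a median of 0.30. Mouse 5 is the shallower library, and *Ddx3y*, a gene of the Y chromosome, stood at 188 CPM in mouse 6 and 0.261 CPM in mouse 5, with unstimulated mouse 3 at 159 CPM and no other library above 0.0567 CPM. Depth and sex thus differ at once between the 2 stimulated libraries, and their parts were not tested.

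**Figure D5:**
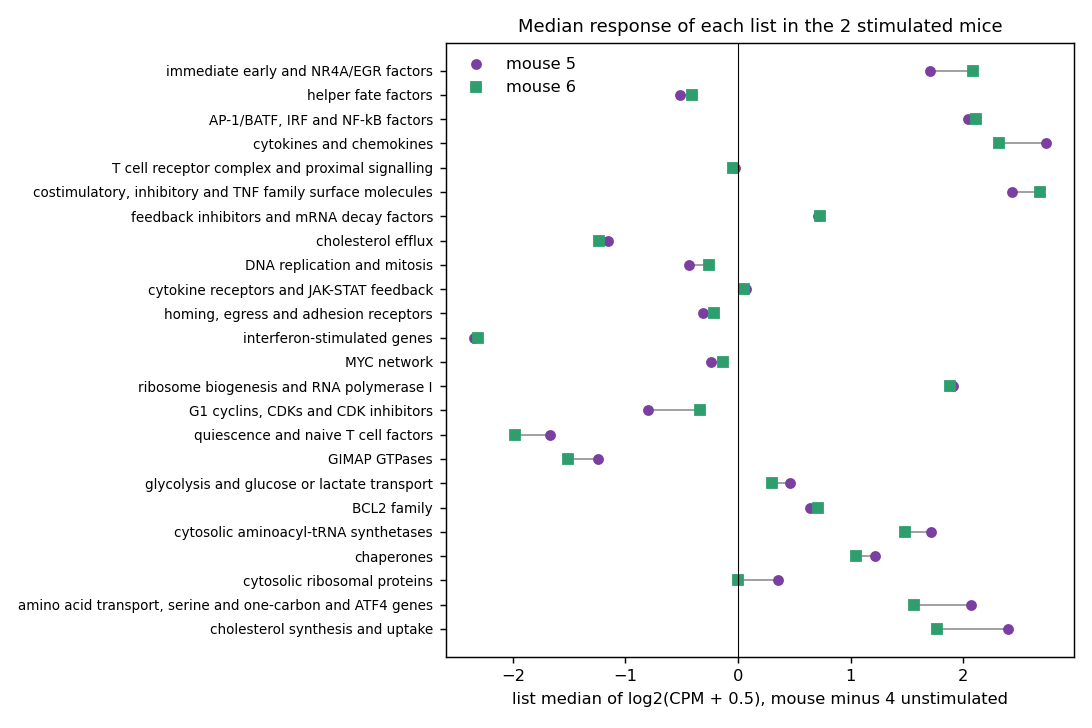
Median over each list of log2(CPM + 0.5) in stimulated mouse 5 (purple circles) and stimulated mouse 6 (green squares) minus the mean of the 4 unstimulated mice, with lists ordered by the median difference between the 2 mice. For cholesterol synthesis mouse 5 lies at 2.39 and mouse 6 at 1.76, while for ribosome biogenesis the points nearly coincide at 1.91 and 1.89.

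The labelled cell type and the genotype were checked on their genes. CD4 T cell markers were present in all 6 libraries, with *Cd4* at 734 to 1134 CPM, and summed to 4967 to 5570 CPM before and 5916 and 6329 CPM after stimulation. Markers of double-positive (DP) thymocytes were lower after stimulation for 7 of 9 tested (77.8%, against 36% of all genes), and their sum went from 101 to 132 CPM to 37.3 and 43.1 CPM. The CD8 lineage list, which shares *Cd8a* and *Cd8b1* with the DP markers, had 3 genes tested, all lower. Its sum went from 114 to 131 CPM to 30.5 and 33.4 CPM. All 5 erythroid genes tested were lower, too few to set against the 36% of all genes, summing to 49.1 to 92.7 CPM and to 9.38 and 10.8 CPM. Of the 8 myeloid and dendritic cell genes 2 were higher and 2 lower, and the sum rose from 10.4 to 22.4 CPM to 28.7 and 37.9 CPM. The 2 higher ones were *Itgax*, at 0.0345–0.293 CPM before and 6.13 and 15.3 CPM after stimulation, and *Cd74*, whereas *Lyz2* was at 0 in both stimulated libraries. B cell genes summed to 1.22 to 1.50 CPM and to 0.346 and 0.391 CPM, with *Cd79b* at 0 after stimulation. *Klrd1* and *Gzma*, the NK cell genes tested, were lower, and *Ncr1* was at 0 in every library. Thymic epithelial genes summed to 63.1 to 136 CPM and to 61.0 and 63.3 CPM, with *Epcam* higher and *Ly75* and *Prss16* lower, and *Foxn1* had 0 to 2 counts. Stromal genes went from 222 to 234 CPM to 56.1 and 70.2 CPM, nearly all of it *Pecam1*, which T cells also express. Of 5 regulatory T cell markers 4 were higher, too few to set against the 33.4% of all genes, and *Il2ra*, *Ctla4* and *Tnfrsf18* among them are also activation genes, while *Foxp3* fell from 0.609–1.1 to 0.261 and 0.0384 CPM. In bulk samples fewer cells of a type and less RNA per cell cannot be told apart, and the part of these cell types in the changes above was not tested. *Ctsl*, deleted by design only in thymic epithelium of the other genotype, was at 8.64, 6.21, 6.29 and 8.73 CPM before and 6.52 and 3.27 CPM after stimulation (log2 fold change -0.69, adjusted p = 0.0631, and 0.139 without unstimulated mouse 1 and 0.562 without stimulated mouse 6). Reads assigned to *Rag1*, which the labels give as knocked out, stood at 5.01, 2.79, 3.66 and 2.77 CPM before and 0.261 and 0.577 CPM after stimulation, and the part of the gene that the allele removes is not given in the sources used here. *Trbc2* was at 6922 CPM in unstimulated mouse 2 and at 1659 to 2083 CPM in the rest.

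Transcripts annotated with a retained intron took 5.13% to 5.77% of counts in unstimulated and 5.99% and 7.63% in stimulated libraries, and mitochondrial ones 2.65% to 3.6% and 3.09% and 2.46%.

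Where the response of WT cells differed from that of Ctsl ΔTEC cells was tested as an interaction in a fit of all 13 libraries. It was called for 856 of 14241 genes (6.01%), with 161 (1.13%) in which the ΔTEC response was more positive and 695 (4.88%) in which it was more negative. Of the genes called higher in WT cells 4.03% had such a difference, and of those called lower 11.1%. *Il2ra* rose less in ΔTEC cells (difference of log2 responses -1.83 ± 0.27, adjusted p = 0.00389). Its stimulated level there, 804 and 764 CPM in ΔTEC mice 6 and 7, was above that of WT cells, and its unstimulated level was 6.52 to 12.9 CPM in 5 ΔTEC mice against 1.97 to 2.55 CPM in WT mice, so the smaller rise started from a higher level. *Il2* was at 3.07 and 5.75 CPM in stimulated ΔTEC cells, below both WT mice, with a difference of -3.91 ± 1.76 that did not pass the threshold (adjusted p = 0.283). *Fosl2* rose more in ΔTEC cells, by 2.50 on the log2 scale (adjusted p = 0.00377), from 1.35 to 2.6 CPM to 493 and 433 CPM, whereas WT cells went from 5.63–12.3 to 326 and 415 CPM. *Ccr8* differed by 3.02 (adjusted p = 0.0172), but its stimulated level was the lower one in ΔTEC cells, at 14 and 14.4 CPM, after an unstimulated level of at most 0.152 CPM. Of the cholesterol genes 10 of 24 responded less in ΔTEC cells and none more, a list in which the 2 stimulated WT mice themselves differed by 0.64 on the log2 scale at the median. For 5 of 8 GIMAP genes and 6 of 28 quiescence genes the ΔTEC response was the more negative one. None of the 55 ribosome biogenesis genes, none of the 78 ribosomal protein genes and none of the 15 cytokine genes in this fit had a called difference, in a design with 2 stimulated mice per genotype.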

How the data were processed

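RNA was sequenced on a NovaSeq from sorted M2 CD4SP thymocytes. The authors pseudoaligned reads with kallisto 0.48, and deposited per library the estimated counts of 117497 transcripts. The TPM values were also made by the authors with kallisto. The labels name polyA RNA and the study's methods an rRNA depletion.

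Estimated counts were summed to genes (116397 transcripts matched GENCODE M21, GRCm38, and at most 0.461% of counts did not), rounded and tested with edgeR 4.0.16 (TMM, filterByExpr, quasi-likelihood test, Benjamini-Hochberg, adjusted p under 0.1) in R 4.3.3, over the 4 unstimulated and 2 stimulated WT libraries. The SE of a log2 fold change is its size over the root of the F statistic. The interaction used all 13 libraries. Where a group had no count, a floor of 3 counts per library gave a bound. Intervals of pooled ratios are exact at a level of 0.95 and cover counting error only. Nothing in the labels but a mouse number separates the replicates.

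The lists and members were chosen with earlier results of these data known. Genes named by rule were the 12 largest changes per direction among called protein-coding genes (mean of at least 10 CPM, no overlap), the 3 largest called members of each list with up to 2 called the opposite way, the 3 largest interactions per direction, and *Il2*, *Il2ra*, *Cd69*, *Nr4a1*, *Egr2*, *Myc*, *Irf4*, *Tnf*, *Ifng*, *Cd40lg*, *Klf2*, *S1pr1*, *Il7r*, *Ccr7*, *Cd4*, *Ctsl*, *Rag1* and *Foxn1* whatever their value. Some genes that these rules or lists hold are not reported here, though list counts and medians include them. Other list members were named after their values were seen. On simulated counts of 13123 genes the test found 88 of 100 genes changed 2-fold and 99 of 100 changed 4-fold, with 25 false calls. Far fewer genes changed in the simulation than were called in the data, so these rates need not hold there. Alternatives were DESeq2 1.42.0, limma 3.58.1 on log2(TPM + 1), other scalings, filters and thresholds, thinning to the smallest library, a Y-linked covariate, all groups in 1 fit, and leaving out each mouse.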

Additional observations from a re-analysis of the deposited data

Results flagged for a closer look

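A mouse was taken as standing apart where its gap to the nearest of the other 3 unstimulated mice, over the range of the 4, exceeded Dixon's critical value (on log2(CPM + 0.5)). This held for 19 of 173 groups of named genes and list sums, where chance gives about 1 in 20, or 8.7. In 6 of them the level was that of 1 to 3 counts against 0: *Il2*, *Ccl4* and *Fosl1* at 0.0277 CPM and *Npas4* at 0.0831 CPM in mouse 4, *Atf3* at 0.0366 CPM in mouse 3 and *Spry2* at 0.0283 CPM in mouse 1. Mouse 4 was high for *Nr4a1* (130 CPM against 49.8 to 54.8 CPM in the others), *Spry1* (1.22 against 0.256 to 0.312 CPM) and *Isg20* (10.7 against 6.38 to 6.8 CPM). It was also high for the summed levels of immediate early genes (3536 against 1373 to 1464 CPM), AP-1, IRF and NF-κB factors (2406 against 2246 to 2267 CPM), feedback genes (5871 against 5023 to 5129 CPM) and ribosomal proteins (76041 against 58308 to 61259 CPM). Mouse 3 was high for *Aars* (61.0 against 49.6 to 51.1 CPM) and *Bcl2a1d* (0.841 against 0.526 to 0.552 CPM) and low for the sum of chaperones (5807 against 6750 to 6928 CPM). Mouse 2 was low for *Dgka* (1524 against 1607 to 1611 CPM) and *Mylip* (119 against 144 to 148 CPM), and mouse 1 for *Sla2* (80.5 against 88.5 to 88.8 CPM).

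The response differed between genotypes, by the interaction term of the edgeR fit of all libraries, for 21 of 133 named genes in that fit, 6 of which had been named for the size of this difference, so their share is not set against that of all genes. Each is given with the difference of log2 responses (ΔTEC minus WT) and its adjusted p. The ΔTEC response was the more negative for *Nr1h3* (-6.42, 0.023), *Edaradd* (-4.50, 0.0136), *Bmf* (-2.58, 0.015), *Cdk5r1* (-2.24, 0.0139), *Trat1* (-2.21, 0.00628), *Il2ra* (-1.83, 0.00389), *Pdk1* (-1.22, 0.00489), *Pdcd4* (-1.09, 0.044), *Slc16a5* (-0.99, 0.0654), *Bcl2a1d* (-0.96, 0.0489), *Themis* (-0.90, 0.0682), *Psph* (-0.89, 0.0423), *Gimap7* (-0.83, 0.053), *Sla2* (-0.68, 0.0318), *Ikbke* (-0.61, 0.0388), *Itgb7* (-0.60, 0.0584), *Gimap4* (-0.52, 0.039). It was the more positive for *Ccr8* (3.02, 0.0172), *Fosl2* (2.50, 0.00377), *Nrn1* (2.19, 0.016), *Hsph1* (1.03, 0.031). Those 6 were *Ccr8*, *Fosl2*, *Nrn1*, *Edaradd*, *Cdk5r1* and *Trat1*. *Nr1h3* was at 0 in both stimulated ΔTEC libraries, so the size of its fitted difference depends on the prior count and is no bound.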

How the results depend on the processing

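The number of genes called lay between 7882 (with 10 counts required in every library) and 9640 (no count filter), against 9299 as reported, and 83.0% to 98.9% of the reported calls were repeated in the same direction. None was called the opposite way, except 5 genes with limma on log2(TPM + 1). Leaving out 1 mouse at a time gave 8181 to 9409 calls, 2008 to 2389 at least 2-fold higher and 2593 to 2723 at least 2-fold lower. Genes at least 2-fold higher numbered 1499 with limma on log2(TPM + 1), a scale whose pseudocount shrinks the change of low genes, against 2344. The median of the cytokine receptor list turned from 0.08 to -0.011 with upper-quartile factors, -0.016 with library totals and -0.038 with limma. The median of the ribosomal proteins was -0.024 to 0.32 over the fits that left out 1 mouse. The cause of these turns was not tested. The cytokine median fell to 1.72 with 10 counts in every library, which leaves 6 genes to test. Among named genes 25 values lost their call with the direction kept, 8 of them without stimulated mouse 6. The genes were *Hspa1b*, *Psph*, *Ctsl*, *Abca1*, *Nr1h2*, *Ccnb1*, *Cd4*, *Id2*, *Gins2* and *Kif11*. No paired analysis was possible because the stimulated mice are numbered 5 and 6 and the unstimulated mice 1 to 4, so the groups share no number. Stimulated mouse 5, with 8085463 counts, limits what can be seen of genes below about 0.391 CPM, the level of 3 counts there.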
